A study of Homo sapiens with 12 samples.

Results

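The 36 genes described here form the transcriptional arm of the integrated stress response that is driven by the transcription factor ATF4, together with the serine and one-carbon enzymes that ATF4 is known to switch on. They were chosen by gene name, and all 36 were found among the 60660 gene identifiers of the files. Of them, 35 reached the level needed for testing, a TPM (a length-normalised share of the RNA) of 1 in 2 or more libraries. The one left out, NUPR1, was nearly silent. RNA was sequenced from Kelly, an established human neuroblastoma cell line with amplified MYCN and an adrenergic, neuron-like character. All cells carried a doxycycline-inducible short hairpin RNA (shRNA), against RCOR2 (shRCOR2), against RCOR1 (shRCOR1) or non-targeting (shCTRL). RCOR1 and RCOR2 encode CoREST scaffold proteins, which hold the demethylase KDM1A and histone deacetylases together. Each line was induced with 2 µg/mL doxycycline or left untreated, with 2 libraries per group and 12 in all. Doxycycline is a tetracycline antibiotic that is also known to inhibit mitochondrial protein synthesis, and every induced group received it, the shCTRL one included. The labels and design text give 72 h, whereas the treatment protocol gives 24 or 48 h, so the time of induction is stated in conflicting ways. They name 1 line per shRNA without saying whether it is a clone or a pool, and do not say whether replicates were separate cultures, so p-values measure only the spread between these samples.

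In the integrated stress response, kinases that sense amino acid shortage, misfolded protein, haem or mitochondrial stress, or double-stranded RNA phosphorylate the initiation factor eIF2. General translation falls while ATF4 mRNA is translated more, and ATF4 then pairs with C/EBP proteins on target genes. Those targets make amino acids, charge and export tRNA, restrain mTORC1 and, through TRIB3, DDIT3 and PPP1R15A, feed back on the response. In neuroblastoma with amplified MYCN, serine synthesis and one-carbon enzymes are known to be highly expressed.

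The targeted transcripts were read first. RCOR2 had 17.7 and 20.5 TPM induced against 55.4 and 49.9 TPM untreated in the shRCOR2 line, and RCOR1 had 4.80 and 5.07 TPM induced against 8.32 and 9.08 TPM untreated in the shRCOR1 line. These were log2 changes of -1.42 ± 0.11 and -0.71 ± 0.12 (SE; limma adjusted p = 0.000403 and 0.0109). RCOR2 also fell by 0.94 in the shRCOR1 line (adjusted p = 0.00278). The ratio of coverage to FPKM put the deepest library at 2.14 times the shallowest, and 14758 to 16026 genes reached a TPM of 1. The share of TPM from mitochondrial genes was 13.3% to 21.4%, and in each group replicate 2 had the larger share. All 8 adrenergic markers reached a TPM of 1 in every group. Of 12 markers of other cell types, 3 to 7 did so, with a summed level of 11.5 to 133 TPM. The sum was highest in the replicate 2 libraries of shCTRL, at 124 TPM induced and 133 TPM untreated. In replicate 1 these were 17.5 and 20.0 TPM, and PTPRC and PECAM1 stayed under 0.05 TPM in every group.

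Before induction the genes were well expressed, and none was called between the lines. In untreated cells 17 of the 36 averaged over 100 TPM, led by ATF4 at 449 TPM, SARS1 at 398 TPM and PHGDH at 381 TPM. Among the least abundant were CHAC1 at 16.3 TPM, VLDLR at 6.30 TPM and JDP2 at 5.29 TPM. NUPR1, a small stress-induced chromatin protein, was at or below 0.0231 TPM in every untreated library. Induced, NUPR1 had 0.0223 and 0.131 TPM in shRCOR2 cells, 0 and 0.249 TPM in shRCOR1 cells and 0.287 and 1.71 TPM in shCTRL cells. No member was called between untreated shRCOR2 and untreated shCTRL cells, nor between untreated shRCOR1 and untreated shCTRL cells. None had an unadjusted p under 0.05 in either comparison, and 0.0% of all genes were called in either. A gene is called here where limma's Benjamini-Hochberg adjusted p over all 16842 genes tested is below 0.05. Counts at an unadjusted p under 0.05 are given below without the share of all genes. Nothing is read from those counts about the members or the lists as groups. The median member difference from shCTRL was -0.12 in untreated shRCOR2 cells and -0.17 in untreated shRCOR1 cells on the log2(TPM + 1) scale. All log2 values below are on this scale, on which changes of low genes are understated.

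**Figure D1:**
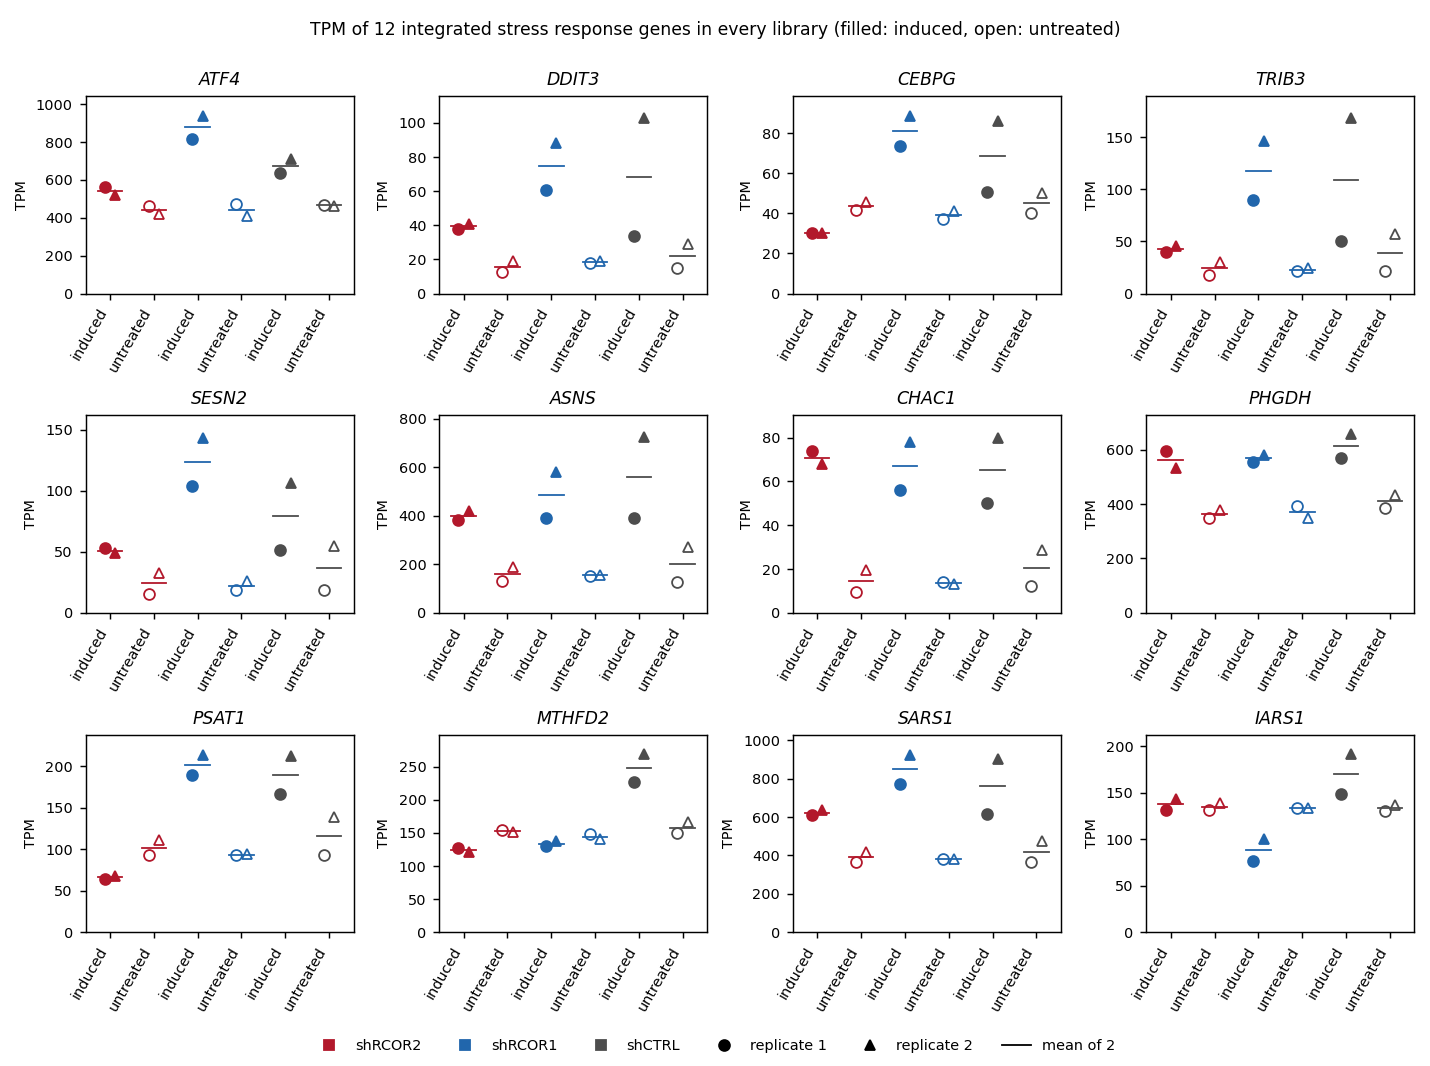
TPM of 12 of the genes in every library, with induced groups (filled) left of their untreated groups (open), circles for replicate 1, triangles for replicate 2 and a line for the mean of 2. DDIT3, ASNS and CHAC1 stand higher in induced cells of all 3 lines, CEBPG and PSAT1 stand lower in induced shRCOR2 cells, and IARS1 stands lower in induced shRCOR1 cells.

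In shRCOR2 cells 4 members were called higher on induction and none lower, in the fit without the replicate block. The 4 were CHAC1, PHGDH, GARS1 and TARS1. Both induced libraries lay below both untreated ones for CEBPB, CEBPG, PSAT1, MTHFD2, MARS1, EPRS1 and XPOT. limma called 4 of the 35 members higher, where 7.81% of all genes were called higher, and 0 lower, where 6.47% were. At an unadjusted p under 0.05, 11 were higher and 3 lower. With the replicate number as a block limma called 15 higher and 3 lower (CEBPG, PSAT1 and MTHFD2), against 21.4% and 14.8% of all genes. The median member change was 0.43, and that of all genes tested was 0.07. Both induced libraries lay above both untreated ones for 22 members (37.6% of all genes) and below them for 7 (25.7%). The counts of members that were lower were no larger than these shares of all genes, by any of the measures given with a share. Nothing is read from them, or from the 4 members called higher, about the members as a group.

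A fit that leaves out 1 library leaves its group with 1, so calls can be lost through group size alone. A lost call therefore does not show that a change rested on that library. In these unblocked fits the shRCOR2 changes were 0.55 to 0.71 for PHGDH and 1.81 to 2.75 for CHAC1. They were 0.76 to 0.96 for GARS1 and 0.51 to 0.57 for TARS1. The unblocked count of 4 changed more. It was 0 without induced or untreated replicate 1 of shRCOR2 and 1 without induced or untreated replicate 2. It was 9 without either induced shCTRL library and 6 without either untreated one.

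In shRCOR1 cells 15 members rose and 1 fell. ATF4 itself, its partners DDIT3, CEBPB and CEBPG, the inhibitors TRIB3 and SESN2, and the enzymes ASNS, GPT2, PHGDH and PSAT1 all rose. The isoleucyl-tRNA synthetase IARS1 fell. In all, 15 members were called higher (4.98% of all genes) and 1 lower (3.64%), and with the replicate block 27 higher (15.4%) and 1 lower (12.1%). The median member change was 0.95, and that of all genes was 0.04. Both induced libraries lay above both untreated ones for 31 members (29.4% of all genes) and below them for 3 (23.7%), which were MTHFD2, PYCR1 and IARS1. By replicate number, induced was above untreated in both pairs for 31 (42.7%). Markers of other cell types were higher in the same comparison. Of the 7 tested, limma called 2 higher and 0 lower, and 3 higher with the block. These were the epithelial marker EPCAM (1.83 ± 0.33; adjusted p = 0.012), the endothelial marker VWF (0.77 ± 0.19; adjusted p = 0.0461) and, with the block, the epithelial keratin KRT8 (1.96 ± 0.52; adjusted p = 0.0534, and 0.0028 with the block). All 12 markers summed to 33.9 and 81.5 TPM in induced and 11.5 and 31.6 TPM in untreated shRCOR1 cells, with PTPRC and PECAM1 under 0.05 TPM in both groups. Their part in the members' changes was not tested.

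Leaving out single libraries changed this count as well. Of the 16 calls in shRCOR1 cells, those of ATF4 and MARS1 held in all 12 fits that left out 1 library, and the other 14 ended without either untreated shRCOR1 library. DDIT3, TRIB3, ASNS, VLDLR and IARS1 also lost the call without any 1 shRCOR2 library, CEBPG without either induced shRCOR2 library, and IARS1 without either untreated shCTRL library. The count was 7 without induced shRCOR1 replicate 1, 3 without induced replicate 2, 2 without either untreated one and 10 without either induced shRCOR2 library.

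Levels were also higher in induced shCTRL cells, but no member was called. All 35 members averaged higher in induced than in untreated shCTRL cells, with log2 differences of 0.19 to 1.70 and a median of 0.72, where the median of all genes was -0.02. limma called 0 members in either direction (0.0% of all genes in each), with or without the replicate block (0.0297% of all genes in each direction). The SE of a gene is the same in each line, but p-values are adjusted within each comparison. A change of similar size can therefore be called in a knockdown line and not in shCTRL cells. PHGDH, with similar changes in each line, was called only in the knockdown lines. Numbers of calls in the lines thus do not show whether the members responded differently. At an unadjusted p under 0.05, 26 members were higher and 0 lower, a count given without the share of all genes. For 26 members both induced libraries lay above both untreated ones, which held for 7.99% of all genes, and for 0 below (15.6%). Taken by replicate number, 34 members were higher induced in both pairs (27.5% of all genes). The spread between the shCTRL replicates was wide. Replicate 2 also held the highest summed level of other-cell markers, whose part in these values was not tested.

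Averaged over the 3 lines, so over all 12 libraries, members of every role were called higher. A call on this mean need not hold in each line. CEBPB and MARS1, called here, lay lower in induced than in untreated shRCOR2 cells. limma called 21 of the 35 members higher on average (4.71% of all genes) and 0 lower (4.9%). These were 4 of 6 transcription factors, 3 of 4 feedback genes, 3 of 6 serine and one-carbon enzymes and 2 of 4 enzymes of asparagine, proline, alanine and phosphoenolpyruvate metabolism. They also included 2 of 3 transsulfuration and glutathione genes, 5 of 10 tRNA genes and both VLDLR and STC2. With the replicate block 30 were higher (18.4%) and 0 lower (15.0%). The median change was 0.67, with 0.04 for all genes. In 21 members induced exceeded untreated in all 6 same-numbered pairs, as in 8.67% of all genes. ATF4, DDIT3, CEBPB, PHGDH, ASNS, CHAC1, GARS1, SARS1, MARS1 and TARS1 kept the call whichever library was left out. The other 11 lost it without induced shRCOR2 replicate 1, among other libraries. The count of 21 was 10 to 11 without induced shRCOR2 replicate 1 or 2, untreated shRCOR2 replicate 1, induced shRCOR1 replicate 2 or untreated shRCOR1 replicate 1, and 13 without untreated shRCOR1 replicate 2.

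**Figure D2:**
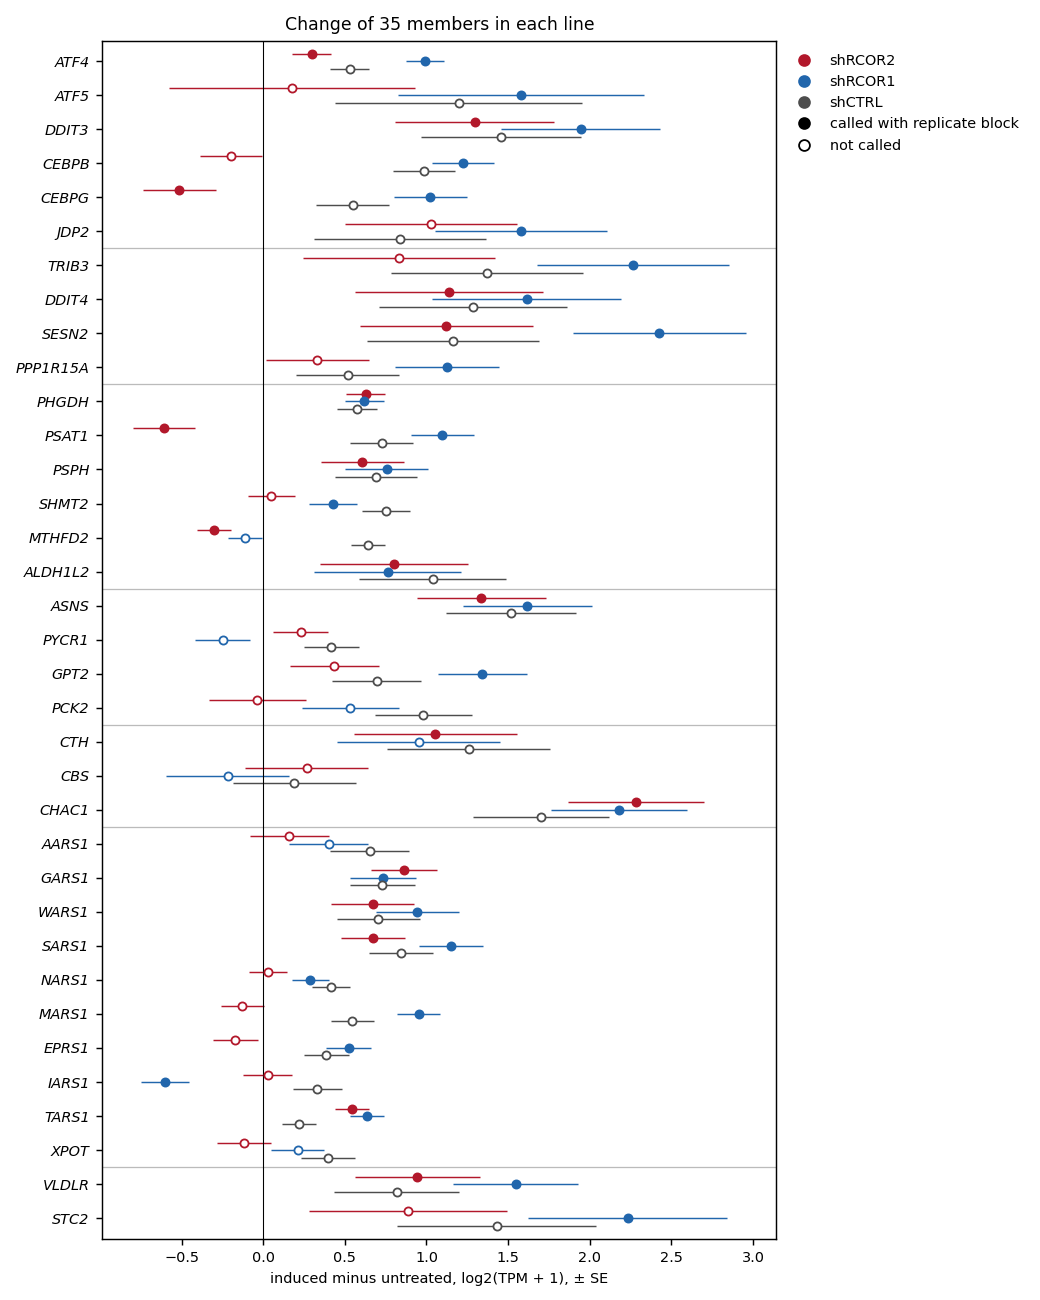
Induced minus untreated difference (log2(TPM + 1), ± SE from limma) of the 35 tested genes in shRCOR2, shRCOR1 and shCTRL cells, with filled points where the replicate-blocked fit called the gene. All 35 shCTRL points lie above 0 and none is filled, whereas CEBPG, PSAT1 and MTHFD2 are filled below 0 in shRCOR2 cells and IARS1 in shRCOR1 cells.

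The DNA element that ATF4 and C/EBP proteins share, the C/EBP-ATF response element, has a core that was searched as TGATGNAA on both strands. Windows ran from 250 bases before to 50 bases after each transcript start, 300 bases in all, as given by RefSeq for GRCh38.p14. Of the 36 members 30 had a window (47 windows), and 10 held the core (33.3%), against 4.46% of 27305 genes and 3.62% of 35116 windows. The 10 were ASNS, CHAC1, CEBPG, JDP2 and the synthetase genes AARS1, GARS1, IARS1, MARS1, NARS1 and TARS1. SHMT2, GPT2, PSPH, PYCR1, ALDH1L2 and NUPR1 had no window there. The 6 stretches below are shown because their genes changed in different ways. CHAC1 and GARS1 rose in shRCOR2 cells, ASNS was called with the block in both knockdown lines, CEBPG and MARS1 differed between those lines, and IARS1 fell in shRCOR1 cells. Each is 30 bases, 5′ to 3′ on the strand named, with the core in capitals.
CHAC1 (chr15:40953251-40953280, - strand): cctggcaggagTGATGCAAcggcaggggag
GARS1 (chr7:30594834-30594863, - strand): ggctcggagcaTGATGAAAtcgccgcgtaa
ASNS (chr7:97872458-97872487, - strand): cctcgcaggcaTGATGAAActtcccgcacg
CEBPG (chr19:33374060-33374089, + strand): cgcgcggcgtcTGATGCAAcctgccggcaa
MARS1 (chr12:57488053-57488082, - strand): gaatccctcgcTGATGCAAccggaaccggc
IARS1 (chr9:92293692-92293721, + strand): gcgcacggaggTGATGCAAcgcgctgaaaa
The base of the core furthest upstream, on the strand of the gene, stood at -209 for CHAC1, -33 for GARS1, -68 for ASNS, -42 for CEBPG, -4 for MARS1 and -13 for IARS1. For CHAC1, GARS1, MARS1 and IARS1, printed on the strand opposite to the gene, it is the last capital. Positions are counted from the RefSeq transcript start of each window. In all 6 genes this start lies inside the gene span that the files give. The variable base was A in ASNS and GARS1 and C in the other 4. On average over the lines, 6 of the 10 members with the core were called higher (median change 0.46), and 12 of the 20 members with a window and no match (median 0.72). Of all genes tested, 4.71% were called higher on that average. The match is a description of these letters and does not show that a protein binds there.

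Among the transcription factors, the 6 tested members were called higher with the block in shRCOR1 cells (15.4% of all genes). With the block shRCOR2 cells showed 2 higher (21.4%) and 1 lower (14.8%). ATF4, the effector of the response (ENSG00000128272.15, chromosome 22, 39519672 to 39522683, GRCh38/hg38), had 561 and 518 TPM induced against 460.5 and 418 TPM untreated in the shRCOR2 line. ATF4 had 817 and 941 TPM induced against 472 and 411 TPM untreated in the shRCOR1 line, and 639 and 709.5 TPM induced against 468 and 464 TPM untreated in the shCTRL line. Induced lay above untreated in all 3 lines, furthest in shRCOR1 cells. The log2 changes were 0.30 for shRCOR2, 0.99 for shRCOR1 and 0.53 for shCTRL (SE 0.12 each). The shRCOR1 change was called (adjusted p = 0.00269), and the shRCOR2 change only with the block (adjusted p = 0.133, and 0.0497 with the block). In bulk RNA, a lower level in every cell and fewer cells with the transcript cannot be told apart. DDIT3, the C/EBP-family factor CHOP, had 37.9 and 40.9 TPM induced against 12.5 and 19.1 TPM untreated in the shRCOR2 line. DDIT3 had 60.8 and 88.4 TPM induced against 17.8 and 18.8 TPM untreated in the shRCOR1 line, and 33.6 and 103 TPM induced against 14.8 and 29.1 TPM untreated in the shCTRL line. All induced libraries exceeded all untreated libraries of their line. The changes of DDIT3 were 1.30 for shRCOR2, 1.95 for shRCOR1 and 1.46 for shCTRL (SE 0.49 each), called in shRCOR1 (adjusted p = 0.0442) and with the block in shRCOR2 cells (adjusted p = 0.113, and 0.0123 with the block). The annotated DDIT3 and MARS1 genes lie on opposite strands and share 982 bases, so reads may be shared where strand was not used in counting.

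CEBPG, a C/EBP factor that pairs with ATF4 (ENSG00000153879.9, chromosome 19, 33373685 to 33382686), had 30.1 and 30.4 TPM induced against 41.8 and 45.4 TPM untreated in the shRCOR2 line. CEBPG had 73.8 and 88.4 TPM induced against 37.2 and 41.4 TPM untreated in the shRCOR1 line, and 50.5 and 86.2 TPM induced against 40.2 and 49.9 TPM untreated in the shCTRL line. Induced CEBPG was below untreated in shRCOR2 cells and above it in both other lines, with no overlap in any line. The changes were -0.51 for shRCOR2, 1.02 for shRCOR1 and 0.55 for shCTRL (SE 0.22 each), called higher in shRCOR1 (adjusted p = 0.0266) and lower in shRCOR2 cells only with the block (adjusted p = 0.166, and 0.0303 with the block). CEBPB, a C/EBP factor induced with ATF4, had 30.9 and 31.6 TPM induced against 33.1 and 39.3 TPM untreated in the shRCOR2 line. CEBPB had 80.3 and 87.0 TPM induced against 36.2 and 34.2 TPM untreated in the shRCOR1 line, and 66.2 and 93.0 TPM induced against 33.2 and 46.1 TPM untreated in the shCTRL line. Again the shRCOR2 libraries were the ones in which induced lay below untreated. CEBPB had log2 differences of -0.20 for shRCOR2, 1.22 for shRCOR1 and 0.99 for shCTRL (SE 0.19 each), and was called in shRCOR1 cells (adjusted p = 0.00697) but not in shRCOR2 cells (adjusted p = 0.541, and 0.29 with the block).

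JDP2, an AP-1 family repressor, had 10.7 and 11.3 TPM induced against 3.59 and 6.57 TPM untreated in the shRCOR2 line. JDP2 had 14.3 and 13.3 TPM induced against 3.17 and 4.88 TPM untreated in the shRCOR1 line, and 6.19 and 23.7 TPM induced against 4.60 and 8.91 TPM untreated in the shCTRL line. The induced range overlapped the untreated range in shCTRL cells. The mean change of JDP2 over the lines was 1.15 ± 0.31 (limma adjusted p = 0.0499), and within shRCOR1 cells it was called with the block (adjusted p = 0.107, and 0.0143 with the block). ATF5, a relative of ATF4 that is linked to the mitochondrial stress response, had 13.3 and 16.5 TPM induced against 9.49 and 17.6 TPM untreated in the shRCOR2 line. ATF5 had 26.4 and 38.2 TPM induced against 8.59 and 11.5 TPM untreated in the shRCOR1 line, and 26.0 and 101 TPM induced against 9.65 and 48.0 TPM untreated in the shCTRL line. Replicate 2 of shCTRL stood apart in both groups, and the shRCOR2 ranges overlapped. ATF5 averaged a change of 0.98 ± 0.44 over the lines, called only with the block (adjusted p = 0.187, and 0.0206 with the block).

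All 4 feedback genes were called higher with the block in shRCOR1 cells (15.4% of all genes), and 2 of them without it (4.98%). TRIB3, a pseudokinase that inhibits ATF4 and AKT, had 40.0 and 45.2 TPM induced against 17.8 and 30.7 TPM untreated in the shRCOR2 line. TRIB3 had 89.6 and 146 TPM induced against 21.9 and 24.2 TPM untreated in the shRCOR1 line, and 50.6 and 168 TPM induced against 21.6 and 56.7 TPM untreated in the shCTRL line. In the shCTRL line untreated replicate 2 exceeded induced replicate 1, so the groups overlapped. The log2 differences of TRIB3 were 0.83 for shRCOR2, 2.27 for shRCOR1 and 1.37 for shCTRL (SE 0.59 each), called in shRCOR1 cells (adjusted p = 0.0495). SESN2, a leucine sensor that restrains mTORC1, had 53.0 and 48.7 TPM induced against 15.8 and 32.8 TPM untreated in the shRCOR2 line. SESN2 had 103 and 143 TPM induced against 18.5 and 25.7 TPM untreated in the shRCOR1 line, and 51.4 and 106 TPM induced against 19.1 and 55.0 TPM untreated in the shCTRL line. Both induced libraries of the knockdown lines exceeded their untreated ones, while the shCTRL groups overlapped. SESN2 changes were 1.12 for shRCOR2, 2.43 for shRCOR1 and 1.16 for shCTRL (SE 0.53 each), with a call in shRCOR1 cells (adjusted p = 0.0261) and, with the block, in shRCOR2 cells (adjusted p = 0.198, and 0.0225 with the block).

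DDIT4, also known as REDD1, another brake on mTORC1, had 316 and 334 TPM induced against 93.1 and 232 TPM untreated in the shRCOR2 line. DDIT4 had 359 and 534 TPM induced against 131 and 155 TPM untreated in the shRCOR1 line, and 358 and 769 TPM induced against 126 and 366 TPM untreated in the shCTRL line. The untreated replicates of shRCOR2 and shCTRL were themselves far apart. DDIT4 averaged a change of 1.35 ± 0.33 (adjusted p = 0.0397), and was called with the block in shRCOR1 (adjusted p = 0.128, and 0.00744 with the block) and shRCOR2 cells (adjusted p = 0.229, and 0.0246 with the block). The remaining member, PPP1R15A, encodes the eIF2 phosphatase subunit GADD34 and ran from 25.3 to 78.0 TPM. It was called with the block in shRCOR1 cells (1.13 ± 0.32; adjusted p = 0.0634, and 0.0283 with the block).

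Serine synthesis did not move as a unit in shRCOR2 cells. PHGDH makes the first intermediate of serine from a glycolytic product, PSAT1 aminates it and PSPH completes the pathway. PHGDH had 593 and 532 TPM induced against 348 and 379 TPM untreated in the shRCOR2 line. PHGDH had 555 and 581 TPM induced against 392 and 348 TPM untreated in the shRCOR1 line, and 568 and 657 TPM induced against 386 and 435 TPM untreated in the shCTRL line. Every induced library exceeded every untreated one. PHGDH changes were 0.63 for shRCOR2, 0.62 for shRCOR1 and 0.58 for shCTRL (SE 0.12 each), and were called in shRCOR2 (adjusted p = 0.0124) and shRCOR1 cells (adjusted p = 0.0167). PSAT1, the next enzyme (ENSG00000135069.14, chromosome 9, 78297125 to 78330093), had 64.6 and 68.1 TPM induced against 93.0 and 111 TPM untreated in the shRCOR2 line. PSAT1 had 189 and 213 TPM induced against 92.7 and 94.1 TPM untreated in the shRCOR1 line, and 167 and 213 TPM induced against 93.2 and 139 TPM untreated in the shCTRL line. Induced shRCOR2 cells held the lowest PSAT1 levels of the series, below all their untreated libraries, and the other lines were higher when induced. PSAT1 changes were -0.61 for shRCOR2, 1.10 for shRCOR1 and 0.72 for shCTRL (SE 0.19 each), called higher in shRCOR1 cells (adjusted p = 0.0109) and lower in shRCOR2 cells with the block (adjusted p = 0.0678, and 0.00553 with the block). PSPH had 68.4 and 77.0 TPM induced against 44.7 and 50.0 TPM untreated in the shRCOR2 line. PSPH had 65.4 and 85.6 TPM induced against 42.5 and 45.4 TPM untreated in the shRCOR1 line, and 67.2 and 101 TPM induced against 39.8 and 64.6 TPM untreated in the shCTRL line. Its induced libraries lay above the untreated ones in each line, and its mean change of 0.68 ± 0.15 was called (adjusted p = 0.0245).

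Of 3 mitochondrial one-carbon enzymes, MTHFD2 lay lower in induced than in untreated cells of both knockdown lines, and ALDH1L2 lay higher in all 6 same-numbered pairs. SHMT2, which converts serine to glycine and a one-carbon unit, had 196 and 150.0 TPM induced against 168 and 164 TPM untreated in the shRCOR2 line. SHMT2 had 225 and 213 TPM induced against 181 and 147 TPM untreated in the shRCOR1 line, and 300.1 and 315 TPM induced against 171 and 195 TPM untreated in the shCTRL line. The shRCOR2 groups overlapped, and the highest levels were in induced shCTRL cells. SHMT2 changes were 0.05 for shRCOR2, 0.43 for shRCOR1 and 0.75 for shCTRL (SE 0.15 each), with a call in shRCOR1 cells only under the block (adjusted p = 0.115, and 0.0373 with the block). MTHFD2, which oxidises that unit in mitochondria, had 126 and 122 TPM induced against 154 and 152 TPM untreated in the shRCOR2 line. MTHFD2 had 129.8 and 138 TPM induced against 149 and 141 TPM untreated in the shRCOR1 line, and 226 and 269 TPM induced against 149 and 167 TPM untreated in the shCTRL line. Induced cells were lower than untreated ones in both knockdown lines and higher in shCTRL cells, with no overlap. The log2 differences of MTHFD2 were -0.30 for shRCOR2, -0.11 for shRCOR1 and 0.64 for shCTRL (SE 0.11 each), and the lower level in shRCOR2 cells was called with the block (adjusted p = 0.0936, and 0.0288 with the block). ALDH1L2, a mitochondrial folate dehydrogenase, had 18.2 and 21.5 TPM induced against 8.23 and 14.4 TPM untreated in the shRCOR2 line. ALDH1L2 had 14.4 and 23.0 TPM induced against 9.22 and 11.6 TPM untreated in the shRCOR1 line, and 18.1 and 39.0 TPM induced against 8.29 and 18.5 TPM untreated in the shCTRL line. The shCTRL groups overlapped, and the mean change of 0.87 ± 0.26 was called only with the block (adjusted p = 0.0702, and 0.00145 with the block).

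Of the enzymes for other amino acids, asparagine synthetase moved most. ASNS, asparagine synthetase, a classical ATF4 target, had 381 and 419.8 TPM induced against 131 and 189.8 TPM untreated in the shRCOR2 line. ASNS had 390.4 and 579 TPM induced against 153 and 155 TPM untreated in the shRCOR1 line, and 393 and 724 TPM induced against 126 and 273 TPM untreated in the shCTRL line. All induced libraries exceeded all untreated libraries. ASNS had log2 differences of 1.34 for shRCOR2, 1.62 for shRCOR1 and 1.52 for shCTRL (SE 0.40 each), called in shRCOR1 (adjusted p = 0.0404) and with the block in shRCOR2 cells (adjusted p = 0.0566, and 0.00304 with the block). ASNS and its pseudogene ASNSP1, which ran from 2.22 to 19.9 TPM, may share reads. GPT2, a mitochondrial alanine aminotransferase, had 45.2 and 44.5 TPM induced against 27.6 and 39.1 TPM untreated in the shRCOR2 line. GPT2 had 68.0 and 83.4 TPM induced against 26.3 and 32.1 TPM untreated in the shRCOR1 line, and 53.9 and 72.1 TPM induced against 28.8 and 50.3 TPM untreated in the shCTRL line. No line overlapped between induced and untreated. GPT2 changes were 0.43 for shRCOR2, 1.34 for shRCOR1 and 0.70 for shCTRL (SE 0.27 each), called in shRCOR1 cells (adjusted p = 0.0198). PCK2, the mitochondrial phosphoenolpyruvate carboxykinase, had 48.3 and 43.9 TPM induced against 40.3 and 55.4 TPM untreated in the shRCOR2 line. PCK2 had 62.9 and 78.9 TPM induced against 48.5 and 48.1 TPM untreated in the shRCOR1 line, and 85.3 and 141 TPM induced against 42.1 and 72.1 TPM untreated in the shCTRL line. Only the shRCOR2 groups overlapped, and the mean change of 0.49 ± 0.17 was called only with the block (adjusted p = 0.104, and 0.0149 with the block). PYCR1, a proline synthesis enzyme at 202 to 302 TPM, was not called in any line, with changes of 0.23 for shRCOR2, -0.25 for shRCOR1 and 0.42 for shCTRL.

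CHAC1, which breaks down glutathione, had 73.7 and 67.9 TPM induced against 9.63 and 19.5 TPM untreated in the shRCOR2 line. CHAC1 had 55.9 and 77.9 TPM induced against 14.3 and 13.4 TPM untreated in the shRCOR1 line, and 50.3 and 80.0 TPM induced against 12.4 and 28.5 TPM untreated in the shCTRL line. This was the largest mean change of any member, and the 6 induced libraries lay above all 6 untreated ones. The log2 differences of CHAC1 were 2.28 for shRCOR2, 2.18 for shRCOR1 and 1.70 for shCTRL (SE 0.42 each), called in shRCOR2 (adjusted p = 0.0101) and shRCOR1 cells (adjusted p = 0.0156). CTH, the last enzyme of transsulfuration, which makes cysteine, had 25.8 and 22.6 TPM induced against 8.75 and 14.0 TPM untreated in the shRCOR2 line. CTH had 16.5 and 27.9 TPM induced against 9.87 and 11.4 TPM untreated in the shRCOR1 line, and 18.3 and 52.9 TPM induced against 8.55 and 18.1 TPM untreated in the shCTRL line. CTH was higher induced in each line without overlap, with a mean change of 1.09 ± 0.29 (adjusted p = 0.0497). CBS, the first transsulfuration enzyme, had 204 and 235 TPM induced against 148 and 224 TPM untreated in the shRCOR2 line. CBS had 132 and 202 TPM induced against 155 and 234 TPM untreated in the shRCOR1 line, and 156 and 257 TPM induced against 130.5 and 236 TPM untreated in the shCTRL line. Its groups overlapped in all 3 lines and its mean change was 0.08 ± 0.22 (adjusted p = 0.85, and 0.437 with the block). CBS has a near-identical annotated copy, CBSL, at 57.8 to 124 TPM, so the split of reads between them is uncertain.

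The log2 differences of the 10 tRNA genes ran from -0.17 to 0.86 in shRCOR2 cells, from -0.60 to 1.15 in shRCOR1 cells and from 0.22 to 0.84 in shCTRL cells. SARS1, seryl-tRNA synthetase, had 611 and 636 TPM induced against 364 and 419.6 TPM untreated in the shRCOR2 line. SARS1 had 774 and 926 TPM induced against 383 and 379.7 TPM untreated in the shRCOR1 line, and 617 and 903 TPM induced against 365 and 474 TPM untreated in the shCTRL line. The SARS1 changes were 0.67 for shRCOR2, 1.15 for shRCOR1 and 0.84 for shCTRL (SE 0.20 each), with no overlap in any line, and were called in shRCOR1 (adjusted p = 0.01) and with the block in shRCOR2 cells (adjusted p = 0.0532, and 0.00377 with the block). GARS1, glycyl-tRNA synthetase, had 452 and 460.1 TPM induced against 234 and 268 TPM untreated in the shRCOR2 line. GARS1 had 359 and 454 TPM induced against 236 and 248 TPM untreated in the shRCOR1 line, and 376 and 542 TPM induced against 237 and 312 TPM untreated in the shCTRL line. No line overlapped, and GARS1 changes were 0.86 for shRCOR2, 0.73 for shRCOR1 and 0.73 for shCTRL (SE 0.20 each), called in shRCOR2 cells (adjusted p = 0.0244) and with the block in shRCOR1 cells (adjusted p = 0.0576, and 0.00273 with the block). WARS1, tryptophanyl-tRNA synthetase, had 42.2 and 42.1 TPM induced against 27.6 and 24.7 TPM untreated in the shRCOR2 line. WARS1 had 46.6 and 51.8 TPM induced against 25.2 and 25.0 TPM untreated in the shRCOR1 line, and 33.3 and 63.2 TPM induced against 24.2 and 31.9 TPM untreated in the shCTRL line. WARS1 was higher induced without overlap in each line, with a mean change of 0.77 ± 0.15 (adjusted p = 0.0165).

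MARS1, methionyl-tRNA synthetase (ENSG00000166986.15, chromosome 12, 57475445 to 57517569), had 195 and 206 TPM induced against 210.4 and 228 TPM untreated in the shRCOR2 line. MARS1 had 406 and 417 TPM induced against 209.8 and 214 TPM untreated in the shRCOR1 line, and 283 and 359 TPM induced against 199 and 239 TPM untreated in the shCTRL line. Induced MARS1 lay below untreated in shRCOR2 cells and far above it in shRCOR1 cells. The MARS1 changes were -0.13 for shRCOR2, 0.95 for shRCOR1 and 0.55 for shCTRL (SE 0.13 each), called in shRCOR1 cells (adjusted p = 0.00423) and not in shRCOR2 cells (adjusted p = 0.572, and 0.276 with the block). EPRS1, glutamyl-prolyl-tRNA synthetase, had 201 and 207 TPM induced against 222 and 237 TPM untreated in the shRCOR2 line. EPRS1 had 296 and 349 TPM induced against 219 and 227 TPM untreated in the shRCOR1 line, and 266 and 349.7 TPM induced against 222 and 244 TPM untreated in the shCTRL line. The order matched that of MARS1, with changes of -0.17 for shRCOR2, 0.52 for shRCOR1 and 0.39 for shCTRL (SE 0.14 each), called only with the block in shRCOR1 cells (adjusted p = 0.0529, and 0.00355 with the block). IARS1, isoleucyl-tRNA synthetase, had 132 and 144 TPM induced against 132 and 139 TPM untreated in the shRCOR2 line. IARS1 had 76.6 and 99.7 TPM induced against 133 and 133 TPM untreated in the shRCOR1 line, and 149 and 191 TPM induced against 131 and 137 TPM untreated in the shCTRL line. IARS1 was the exception in the other direction, with its lowest levels in induced shRCOR1 cells, overlapping groups in shRCOR2 cells and higher induced levels in shCTRL cells. The log2 differences of IARS1 were 0.03 for shRCOR2, -0.60 for shRCOR1 and 0.33 for shCTRL (SE 0.15 each), called lower in shRCOR1 cells (adjusted p = 0.0418). It was also the sole member whose mean change over the lines was below 0, at -0.08 ± 0.09 (adjusted p = 0.592, and 0.316 with the block).

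TARS1, threonyl-tRNA synthetase, was at 199.6 to 354 TPM and was called in shRCOR2 (0.54 ± 0.11; adjusted p = 0.013) and shRCOR1 cells (0.64 ± 0.11; adjusted p = 0.00906). AARS1, for alanine, ran from 156 to 367 TPM, NARS1, for asparagine, from 105 to 167 TPM, and the tRNA exporter XPOT from 70.8 to 129 TPM. Of these, NARS1 was called with the block in shRCOR1 cells (0.29 ± 0.12; adjusted p = 0.169, and 0.0379 with the block), and AARS1 and XPOT in no single line.

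Finally, VLDLR, a lipoprotein receptor that ATF4 is known to raise, had 11.1 and 12.6 TPM induced against 4.59 and 6.99 TPM untreated in the shRCOR2 line. VLDLR had 14.1 and 22.6 TPM induced against 4.65 and 6.39 TPM untreated in the shRCOR1 line, and 9.81 and 18.4 TPM induced against 5.02 and 10.2 TPM untreated in the shCTRL line. The shCTRL groups overlapped. The log2 differences of VLDLR were 0.94 for shRCOR2, 1.55 for shRCOR1 and 0.82 for shCTRL (SE 0.38 each), called in shRCOR1 (adjusted p = 0.0418) and with the block in shRCOR2 cells (adjusted p = 0.137, and 0.00375 with the block). STC2, a secreted glycoprotein, had 14.8 and 17.2 TPM induced against 4.55 and 14.1 TPM untreated in the shRCOR2 line. STC2 had 32.3 and 46.7 TPM induced against 5.78 and 9.61 TPM untreated in the shRCOR1 line, and 23.5 and 43.1 TPM induced against 5.89 and 20.6 TPM untreated in the shCTRL line. Induced lay above untreated throughout, narrowly in shRCOR2 and shCTRL cells, where untreated replicate 2 was high. STC2 averaged 1.52 ± 0.35 (adjusted p = 0.0318), and was called with the block in shRCOR1 cells (adjusted p = 0.0578, and 0.00142 with the block).

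Differences between the lines were tested directly, as the change in one line minus the change in another. ATF4, CEBPB, CEBPG, PSAT1 and MARS1 changed less, or in the opposite direction, in shRCOR2 cells than in shRCOR1 cells. The transcription factors DDIT3, JDP2 and ATF5 were not called, with or without the block. limma called 5 members lower (5.97% of all genes) and 0 higher (5.2%) for the shRCOR2 change minus the shRCOR1 change. The differences were -1.70 ± 0.27 for PSAT1 (adjusted p = 0.00726), -1.54 ± 0.32 for CEBPG (adjusted p = 0.0183) and -1.42 ± 0.27 for CEBPB (adjusted p = 0.013). They were -1.08 ± 0.19 for MARS1 (adjusted p = 0.00948) and -0.70 ± 0.17 for ATF4 (adjusted p = 0.0326). At an unadjusted p under 0.05, 1 member was higher and 7 lower. With the replicate block 8 were lower (14.7%) and 1 higher (15.7%). The block added GPT2 at -0.91 ± 0.38 (adjusted p = 0.176, and 0.0156 with the block), EPRS1 at -0.70 ± 0.20 (adjusted p = 0.056, and 0.00439 with the block) and STC2 at -1.34 ± 0.86 (adjusted p = 0.379, and 0.0467 with the block) as lower. It added IARS1 at 0.63 ± 0.21 (adjusted p = 0.0944, and 0.0123 with the block) as higher. The median member difference was -0.48, with 0.04 for all genes. Induced shRCOR2 levels lay below induced shRCOR1 levels in both libraries for 25 members (29.6% of all genes) and above them for 3 (37.8%). Among those near 0, PHGDH differed by 0.01 ± 0.17, ALDH1L2 by 0.04 ± 0.64, TARS1 by -0.09 ± 0.15 and CHAC1 by 0.10 ± 0.59, none of them called.

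PSAT1 and MARS1 kept this call in all 12 fits that left out 1 library. CEBPB lost it without either untreated shRCOR1 library, untreated shRCOR2 replicate 2 or induced shRCOR2 replicate 1. CEBPG lost it without any 1 shRCOR2 library, either untreated shRCOR1 library or induced shRCOR1 replicate 2, and ATF4 without any of those or either untreated shCTRL library. The count of 5 was 2 without induced shRCOR2 replicate 1, untreated shRCOR2 replicate 2 or either untreated shRCOR1 library, and 3 without the other shRCOR2 libraries or induced shRCOR1 replicate 2.

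**Figure D3:**
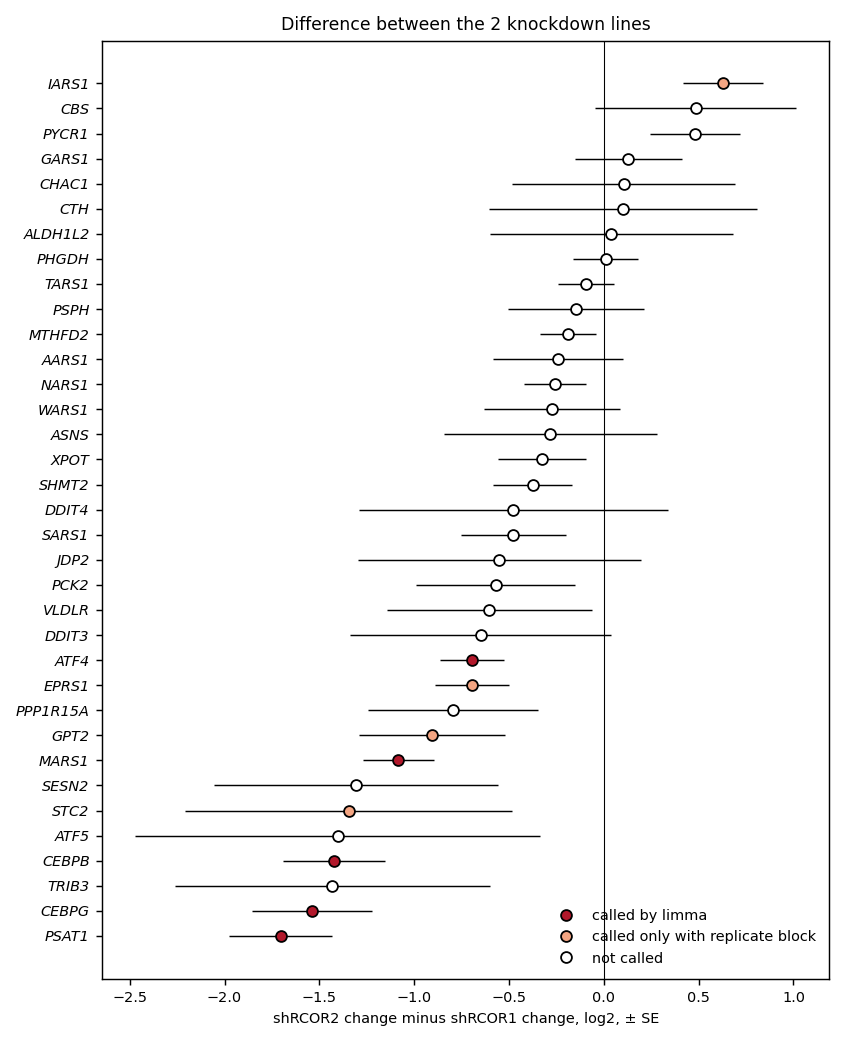
The shRCOR2 change minus the shRCOR1 change (log2, ± SE from limma) for the 35 tested genes in order of size, red where limma called the difference, orange where only the replicate-blocked fit did. PSAT1, CEBPG, TRIB3 and CEBPB stand at the low end between -1.70 and -1.42, PHGDH stands at 0.01, and IARS1 at 0.63 is the one gene called above 0.

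Against shCTRL, the shRCOR2 change was called lower for PSAT1 and MTHFD2. Both genes lay lower in induced than in untreated shRCOR2 cells, and higher in induced than in untreated shCTRL cells. The differences of shRCOR2 and of shRCOR1 from shCTRL share the shCTRL libraries and are given side by side without being compared. For shRCOR2, 2 members were called lower (1.2% of all genes) and 0 higher (0.891%). They were PSAT1 at -1.33 ± 0.27 (adjusted p = 0.0479) and MTHFD2 at -0.94 ± 0.15 (adjusted p = 0.0253). With the block 7 were lower (5.8%) and 0 higher (8.93%). It added CEBPB at -1.19 ± 0.27 (adjusted p = 0.0625, and 0.00815 with the block), CEBPG at -1.06 ± 0.32 (adjusted p = 0.128, and 0.0165 with the block), SHMT2 at -0.70 ± 0.21 (adjusted p = 0.125, and 0.0355 with the block), MARS1 at -0.68 ± 0.19 (adjusted p = 0.106, and 0.0114 with the block) and EPRS1 at -0.56 ± 0.20 (adjusted p = 0.185, and 0.0229 with the block). The median member difference was -0.23 for shRCOR2 (0.09 for all genes) and 0.24 for shRCOR1 (0.05 for all genes). For shRCOR1, 0 members were called higher (0.843%) or lower (0.439%), and 2 were higher and 3 lower at an unadjusted p under 0.05. With the block MTHFD2 at -0.75 ± 0.15 (adjusted p = 0.0552, and 0.0101 with the block) and IARS1 at -0.93 ± 0.21 (adjusted p = 0.0781, and 0.0077 with the block) were lower (3.57%) and 0 higher (6.59%). ATF4 differed from shCTRL by -0.23 ± 0.17 in shRCOR2 and 0.46 ± 0.17 in shRCOR1 cells, and was called in neither.

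The 2 differences called for shRCOR2 against shCTRL kept their direction when 1 library was left out. They ran from -1.62 to -1.05 for PSAT1 and from -1.07 to -0.82 for MTHFD2. Calls can be lost in such fits through group size alone. PSAT1 kept its call only without untreated shCTRL replicate 2 or induced shCTRL replicate 1, and MTHFD2 only without an induced shRCOR1 or an induced shCTRL library. The count was 0 without any 1 shRCOR2 library, either untreated shRCOR1 library or untreated shCTRL replicate 1. It was 1 without either induced shRCOR1 library, untreated shCTRL replicate 2 or induced shCTRL replicate 2, and 4 without induced shCTRL replicate 1.

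Many members also differed between replicate numbers, which recur in every group. Replicate 2 was higher than replicate 1 for 25 of 35 members (33.4% of all genes) and lower for 0 (14.0%), in a limma fit of all 12 libraries with group and replicate number. ATF5 led at 1.02 ± 0.26 (adjusted p = 0.0128), followed by STC2 at 0.89 ± 0.18 (adjusted p = 0.00508), DDIT4 at 0.81 ± 0.19 (adjusted p = 0.00882) and TRIB3 at 0.80 ± 0.20 (adjusted p = 0.0114). ATF4 itself differed by -0.02 ± 0.06 and PHGDH by 0.04 ± 0.06, neither of them called. The median was 0.27, with 0.10 for all genes. Replicate 2 exceeded replicate 1 in all 6 groups for 16 members (30.6% of all genes), and in all 3 untreated groups for 22 (41.6%). Mitochondrial transcripts were also higher in replicate 2 of every group, and so were markers of other cell types, of which 6 of the 7 tested were called higher. Their part in these differences was not tested. The count of 25 was 6 with no filter on low values and 13 with median-of-ratios scaling. It was 16 without either induced shRCOR1 library and 13 without either untreated shCTRL library.

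**Figure D4:**
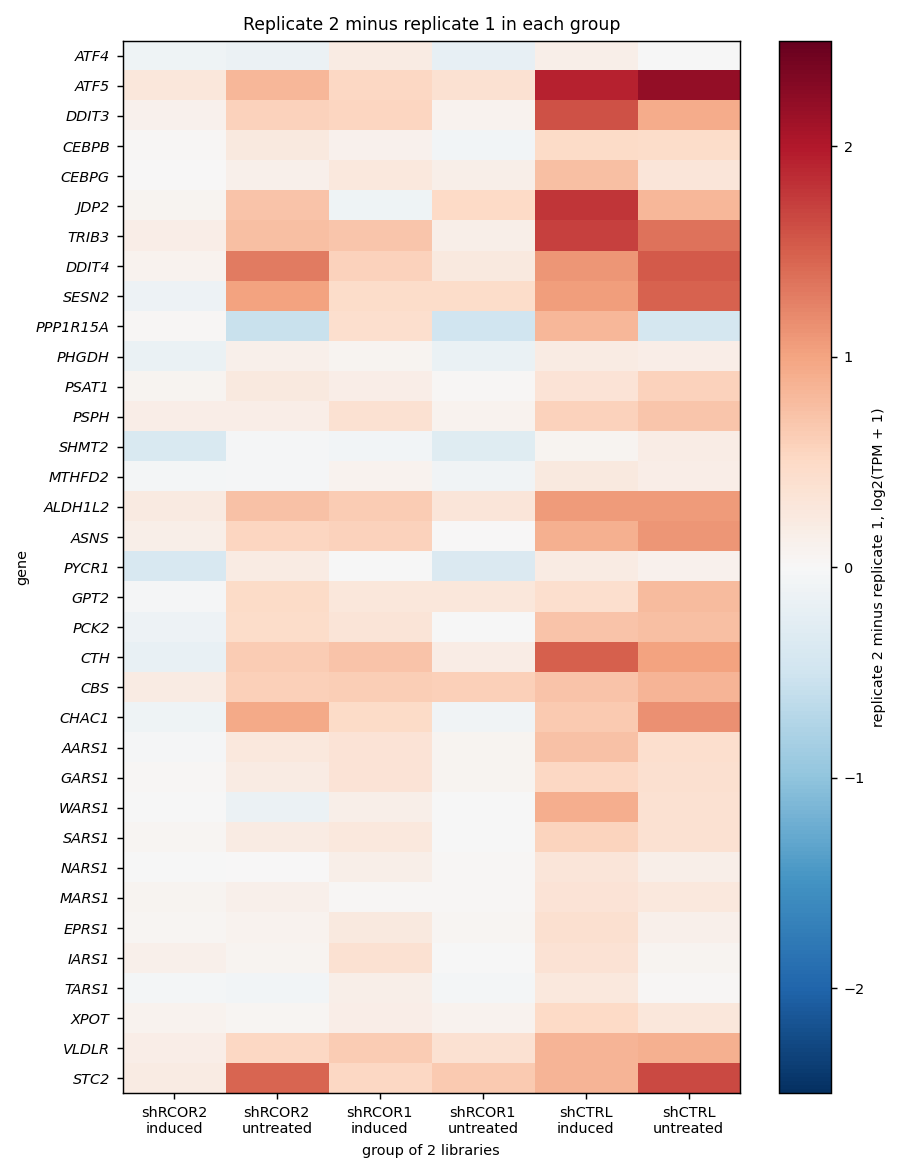
Replicate 2 minus replicate 1 (log2(TPM + 1)) of the 35 tested genes (rows) in each of the 6 groups (columns), red where replicate 2 is higher and blue where it is lower. The shCTRL columns are the reddest, with ATF5 at 1.92 in induced cells, while ATF4 stays between -0.20 and 0.20.

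Genes around the response were examined through lists of related function. Their counts stand against the shares of all genes given above, which were 7.81% called higher and 6.47% lower in shRCOR2 cells (21.4% and 14.8% with the block) and 4.98% higher and 3.64% lower in shRCOR1 cells (15.4% and 12.1% with the block). In a list of 18 tested further ATF4 targets, limma called 3 higher and 1 lower in shRCOR2 cells, 8 higher and 0 lower in shRCOR1 cells and 0 in shCTRL cells (8 higher, 0 lower at an unadjusted p under 0.05). With the block 8 were higher and 3 lower in shRCOR2 cells, and 14 higher and 0 lower in shRCOR1 cells. Its medians were 0.48, 0.99 and 0.50 in that order of lines. The shRCOR2 and shRCOR1 changes differed for 6 of them, all lower in shRCOR2. Of all genes, 5.97% were called lower and 5.2% higher in that comparison. SLC7A5, a leucine transporter subunit, had 45.5 and 46.6 TPM induced against 119 and 136 TPM untreated in the shRCOR2 line. SLC7A5 had 371 and 457 TPM induced against 119.8 and 136 TPM untreated in the shRCOR1 line and 210.0 and 309 TPM induced against 124 and 163 TPM untreated in the shCTRL line. It fell in shRCOR2 (-1.45 ± 0.20; adjusted p = 0.00376) and rose in shRCOR1 cells (1.68 ± 0.20; adjusted p = 0.00278). Its partner SLC3A2 rose in both, by 0.79 ± 0.14 (adjusted p = 0.0103) and 1.37 ± 0.14 (adjusted p = 0.00159). The shCTRL difference of SLC3A2 was 0.74 ± 0.14, close to that in shRCOR2 cells, and was not called. ATF3, a stress-induced repressor, rose in shRCOR1 cells (2.15 ± 0.34; adjusted p = 0.0071). GDF15, a secreted stress hormone, had the largest mean change of this list, 2.95 ± 0.55 (adjusted p = 0.0155).

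Upstream of ATF4 the calls went in both directions. Among 16 tested genes for eIF2, its kinases, its exchange factor and its phosphatase, 1 was called higher and 0 lower in shRCOR2 cells, and 1 higher and 1 lower in shRCOR1 cells. With the block the counts were 1 higher and 1 lower in shRCOR2 cells and 5 higher and 2 lower in shRCOR1 cells. EIF2S2, an eIF2 subunit, rose in shRCOR2 (0.53 ± 0.12; adjusted p = 0.0223) and shRCOR1 cells (0.72 ± 0.12; adjusted p = 0.00906). In shCTRL cells EIF2S2 was higher by 0.43 ± 0.12 and was not called. EIF2AK1, the haem-regulated kinase HRI, fell in shRCOR1 cells (-0.53 ± 0.08; adjusted p = 0.00784). In the 8 genes of the mitochondrial stress relay, OMA1, a protease that cleaves DELE1, rose in shRCOR2 cells (0.72 ± 0.14; adjusted p = 0.0126) and the chaperonin gene HSPD1 fell there (-0.78 ± 0.12; adjusted p = 0.0061). In shRCOR1 cells the protease gene LONP1 rose (0.97 ± 0.21; adjusted p = 0.0274) with HSPD1 (0.51 ± 0.12; adjusted p = 0.0384), and DELE1, the messenger to HRI, fell (-0.57 ± 0.14; adjusted p = 0.0382). With the block 2 of the 8 were higher and 2 lower in each knockdown line. Of 15 endoplasmic reticulum targets of ATF6 and XBP1, 1 was higher and 3 lower in shRCOR2 cells, and 1 higher and 0 lower in shRCOR1 cells. With the block 1 was higher and 4 lower in shRCOR2 cells, and 7 were higher and 0 lower in shRCOR1 cells. XBP1 itself rose in both, by 0.78 ± 0.16 (adjusted p = 0.0169) in shRCOR2 and 1.12 ± 0.16 (adjusted p = 0.00518) in shRCOR1 cells. Its shCTRL difference was 0.74 ± 0.16, close to that in shRCOR2 cells, and was not called. The chaperone genes HSPA5 (-0.78 ± 0.18; adjusted p = 0.0232) and HSP90B1 (-0.72 ± 0.11; adjusted p = 0.00609) fell in shRCOR2 cells. None of the genes in these 3 lists was called in shCTRL cells, and 4 were higher and 0 lower there at an unadjusted p under 0.05.

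Sister enzymes outside the set were counted in the same way. Of 11 other cytosolic tRNA synthetases, 2 were higher and 1 lower in each knockdown line, and with the block 3 higher and 1 lower in shRCOR2 cells and 2 higher and 4 lower in shRCOR1 cells. CARS1 and YARS1, for cysteine and tyrosine, rose in both lines, by 0.88 ± 0.16 (adjusted p = 0.0105) and 0.88 ± 0.14 (adjusted p = 0.00585) in shRCOR2 cells and by 0.79 ± 0.16 (adjusted p = 0.02) and 0.57 ± 0.14 (adjusted p = 0.039) in shRCOR1 cells. In shCTRL cells they were higher by 0.48 ± 0.16 and 0.46 ± 0.14, and neither was called. VARS1, for valine, fell in shRCOR2 cells (-0.62 ± 0.13; adjusted p = 0.0183) and FARSB, a subunit for phenylalanine, in shRCOR1 cells (-1.45 ± 0.10; adjusted p = 0.000253). Of 17 mitochondrial synthetases, 1 was higher and 3 lower in shRCOR2 cells and 0 higher and 2 lower in shRCOR1 cells, led by RARS2, for arginine, in shRCOR2 cells (-1.07 ± 0.09; adjusted p = 0.000532). The block gave 2 higher and 7 lower in shRCOR2 cells and 1 higher and 3 lower in shRCOR1 cells. In 13 other folate and one-carbon genes, 0 were higher in either knockdown line and 1 was lower in each. The block gave 2 higher and 5 lower in shRCOR2 cells and 1 higher and 5 lower in shRCOR1 cells. SLC25A32, the mitochondrial folate carrier, fell in both (-0.84 ± 0.14 with adjusted p = 0.00634 in shRCOR2, -0.65 ± 0.14 with adjusted p = 0.0218 in shRCOR1). Its shCTRL difference was -0.16 ± 0.14, not called. No gene of these lists was called in shCTRL cells, and 4 were higher and 3 lower there at an unadjusted p under 0.05.

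**Figure D5:**
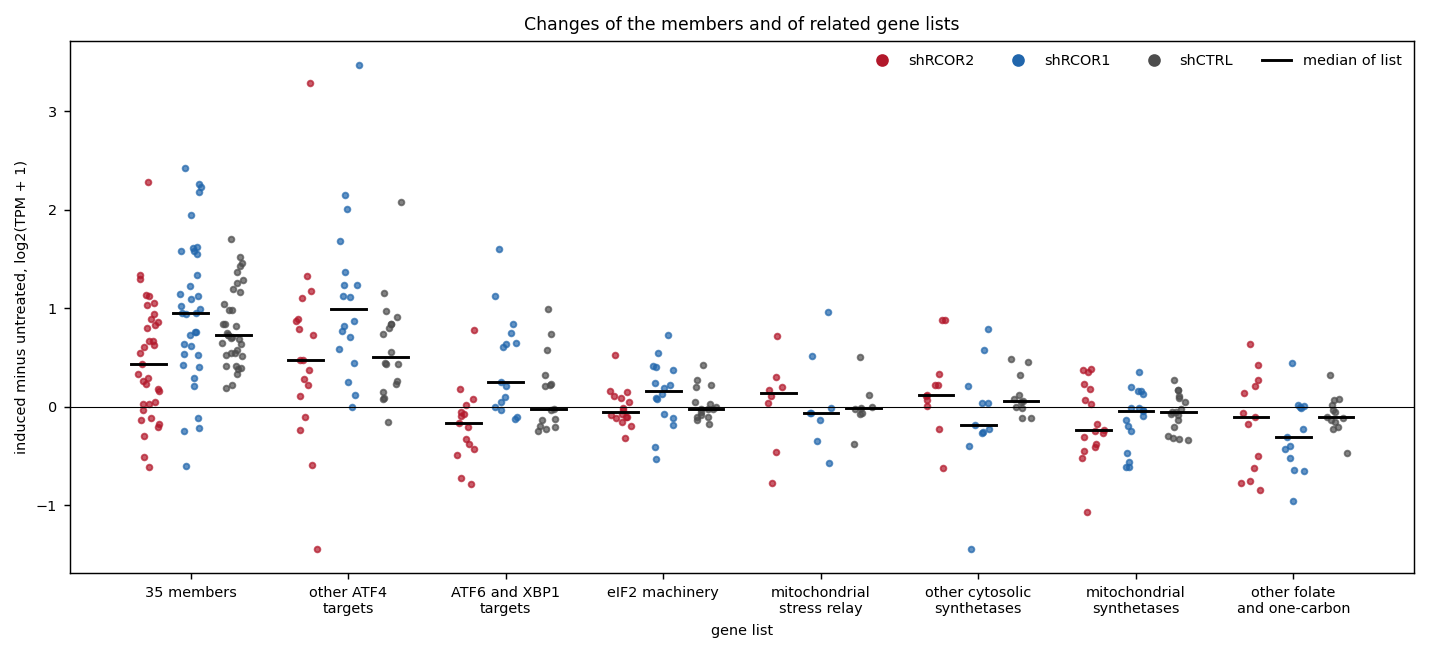
Induced minus untreated difference (log2(TPM + 1)) of each tested gene, as 1 point, in the 35 members and in 7 related lists, for shRCOR2, shRCOR1 and shCTRL cells, with the list median as a bar. The medians of the members and of the other ATF4 targets lie at or above 0.43 in each line, and those of the other 6 lists lie between -0.30 and 0.25.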

How the data were processed

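RNA from 12 libraries of Kelly cells was measured by the authors in directional NEBNext Ultra II libraries, per the labels' protocols. The submitters' processing notes name Trim Galore 0.6.7, HISAT2 2.2.1 and StringTie 2.1.7 and the build GRCh38/hg38. Not given in the sources used here are the annotation release, strand setting and treatment of multiply aligned reads. The deposited TPM are a length-normalised share of each library's RNA, brought by the authors to an equal total, and were analysed here. The deposited FPKM served as an alternative, and the deposited coverage signal only for relative depth. No read counts were used, so no counting intervals are given.

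Values were log2(TPM + 1), with a pseudocount of 1, for the 16842 genes that reached a TPM of 1 in 2 or more libraries. limma 3.58.1 (R 4.3.3) fitted 6 group means to all 12 libraries with a variance trend, and adjusted p-values by Benjamini-Hochberg over all genes tested. Data of this layout were simulated with noise drawn independently for each library, and the fit was tested on them. No shift shared by replicate number was simulated, so the fit was not tested under such a shift. Replicate numbers paired the samples across groups, since same-numbered deviations from group means correlated at 0.37 to 0.75 in all 15 pairs of groups and the first principal component (31.9% of variance) separated the numbers. The labels do not say what the number marks. A fit with replicate number as a block is therefore given where it moves a count by more than 1.5 times, and for many of the calls it changes. Some members called in a line only with the block are counted but not named. Alternatives were a pseudocount of 0.1, no filter, FPKM, median-of-ratios scaling, mitochondrial genes left out of TPM, only the groups compared, and leaving out each library. Members and lists were chosen with earlier results of these data known. Per-library values are given for ATF4, DDIT3, up to 3 members per role with the largest mean change, members called between lines, and members whose mean change was below 0. Other-list genes were named only where called. One gene of the related lists is not reported here and is left out of their counts and medians. Replicate 1 precedes replicate 2 wherever a pair of TPM is given. Promoter windows are RefSeq's, on GRCh38.p14. Python 3.11.15 served for the remaining steps, with numpy 2.4.6, pandas 2.3.3 and matplotlib 3.10.9.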

Additional observations from a re-analysis of the deposited data

Results flagged for a closer look

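In 7 cases the test of a difference between lines was itself past the threshold (limma, adjusted over all genes tested). Against the shCTRL change, the shRCOR2 change was lower by -1.33 for PSAT1 and by -0.94 for MTHFD2 on the log2 scale. Against the shRCOR1 change, the shRCOR2 change was lower for ATF4 at -0.70, CEBPB at -1.42, CEBPG at -1.54, PSAT1 at -1.70 and MARS1 at -1.08. PSAT1 is the gene that appears in both comparisons, which share the shRCOR2 libraries. No group was large enough to look for a single library far from the others, since each holds 2.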

How the results depend on the processing

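Among the called member changes, no direction turned under the alternatives run, but for MARS1 between replicates, at -0.0051 with median-of-ratios scaling, which also moved the median of all genes by -0.13 in that comparison. With the replicate block, calls rose to 18 (shRCOR2), 28 (shRCOR1), 7 (shRCOR2 minus shCTRL), 2 (shRCOR1 minus shCTRL) and 9 (shRCOR2 minus shRCOR1), and the block ended no call. Median-of-ratios scaling gave 8 for shRCOR2, 5 for shRCOR2 minus shCTRL, 1 for shRCOR1 minus shCTRL and 13 between replicates. Fitting only the groups compared gave 13 for shRCOR2 and 0 for shRCOR2 minus shCTRL. Without the filter the counts were 8 for shRCOR1, 1 for shRCOR2 minus shCTRL and 6 between replicates. Leaving out mitochondrial genes gave 10 for shRCOR1 and 1 for shRCOR2 minus shCTRL, and FPKM gave 2 for shRCOR1 minus shCTRL. Leaving out 1 library gave 0 to 9 calls for shRCOR2, 2 to 21 for shRCOR1, 10 to 29 for the mean of lines, 0 to 4 for shRCOR2 minus shCTRL, 0 to 1 for shRCOR1 minus shCTRL, 2 to 6 for shRCOR2 minus shRCOR1 and 13 to 24 between replicates. shCTRL and the untreated comparisons had 0 calls throughout. The causes were not tested. Groups of 2 libraries limit what can be called, and depth per gene is unknown.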
